A study of Mus musculus with 63 samples.

Results

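The transcripts described here are 10 genes that mark the hormone-producing cells of the intestinal epithelium: the granins Chga and Chgb, the hormone genes Gcg, Cck, Sct, Tac1, Sst, Pyy and Ghrl, and Tph1. They were taken by name from 54752 genes in 4 tables of read counts, and all 10 were found in each table. Small intestinal organoids and intestinal epithelial cells (IECs) of C57BL/6 mice were sequenced in 19 groups of 3 libraries, to ask which epithelial programs depend on CDK8 and CDK19, the kinases of the Mediator complex. Organoids of 5 genotypes were treated with 100 nM 4-OHT, which activates CreERT2, and collected at day 7. They were VillinCreERT2 and C57BL/6 organoids as controls, VillinCreERT2 with Cdk8 fl/fl (CDK8iIEC-KO after 4-OHT), Cdk8 fl/fl with both Cdk19 alleles knocked out and no Cre (Cdk8 fl/fl/Cdk19-/-), and VillinCreERT2 with Cdk8 fl/fl and Cdk19 knocked out (CDK8iIEC-KO/Cdk19-/-). A separate line of this last genotype was given 0.001% EtOH or 4-OHT and followed at days 3, 5, 7 and 10, and again at day 10 in Wnt3-conditioned medium (Wnt3-CM), so that both arms carry the Cdk19 knockout by their labels. The kinase-dead line carried VillinCreERT2, Cdk8 fl/fl, a Cdk19 knockout allele and the D173A allele (Cdk19 D173A/-) in both arms, EtOH and 4-OHT, at day 7. IECs came from VillinCreERT2 and CDK8iIEC-KO/Cdk19-/- mice 14 days after tamoxifen at 80 mg/kg. Villin drives Cre in the whole intestinal epithelium, so the deletion is not limited to hormone cells. By the column names each organoid group came from a single line, the time course and Wnt3-CM from the same one, and the CDK8iIEC-KO/Cdk19-/- organoids from another line of that genotype. The labels number organoid replicates without saying that they are separate cultures, so p-values measure the spread between these libraries and a difference between genotypes cannot be told apart from one between lines.

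Enteroendocrine cells are scattered secretory cells that arise from crypt progenitors through the transcription factor NEUROG3 and later factors such as NEUROD1 and PAX4. Each mature cell stores peptides in dense-core granules, which chromogranins A and B help to build, and releases them in response to nutrients or other signals. The cells differ in what they make: enterochromaffin cells produce serotonin through TPH1 and often the tachykinin gene Tac1, L cells Gcg and Pyy, I cells Cck, D cells Sst and X cells Ghrl, while Sct is found in several of these types. Hormone genes also vary along the gut, with Ghrl and Cck high near the stomach and Gcg and Pyy toward the ileum.

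The sequences upstream of 3 genes are shown because Sct behaved unlike the other members across lines, while Gcg and Chga moved in opposite directions in the kinase-dead line. Each run holds the 250 bases before the RefSeq start on build GRCm38.p6, 5′ to 3′ on the strand of the gene, outside the annotated exons of the gene. Capitals mark the E-boxes CAGCTG and CAGATG, which bind basic helix-loop-helix factors, searched on both strands. Sct lies at chr7:141278330-141279133 on the minus strand and its window at chr7:141279134-141279383. Gcg lies at chr2:62474530-62483650 on the minus strand with its window at chr2:62483654-62483903, and Chga at chr12:102554969-102565028 on the plus strand with its window at chr12:102554691-102554940.
Sct: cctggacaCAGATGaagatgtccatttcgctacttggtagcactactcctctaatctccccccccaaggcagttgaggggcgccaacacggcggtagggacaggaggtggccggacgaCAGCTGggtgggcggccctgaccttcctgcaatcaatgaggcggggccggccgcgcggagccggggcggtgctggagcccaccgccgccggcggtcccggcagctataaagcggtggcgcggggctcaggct
Gcg: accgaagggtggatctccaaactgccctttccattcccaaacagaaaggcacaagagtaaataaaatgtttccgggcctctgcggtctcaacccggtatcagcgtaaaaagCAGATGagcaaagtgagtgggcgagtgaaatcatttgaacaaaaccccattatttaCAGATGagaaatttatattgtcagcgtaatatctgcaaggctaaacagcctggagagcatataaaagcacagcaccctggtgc
Chga: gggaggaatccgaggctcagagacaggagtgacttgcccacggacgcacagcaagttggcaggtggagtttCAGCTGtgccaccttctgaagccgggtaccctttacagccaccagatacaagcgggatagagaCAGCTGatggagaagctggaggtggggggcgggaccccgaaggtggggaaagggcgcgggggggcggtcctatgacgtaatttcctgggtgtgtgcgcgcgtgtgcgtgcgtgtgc

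CAGCTG occurred in 13.0% and CAGATG in 14.4% of all 32851 promoter windows of that length. Sct held a copy of each, beginning 132 and 242 bases before the start, Gcg held 2 of CAGATG and Chga 2 of CAGCTG. All 10 members have entries, 15 in all, and a match to these letters was also present for Cck, Tac1 and Ghrl.

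The full cyclic AMP response element, TGACGTCA, is shown for Chgb and Sst because this exact match occurred in no other member window. It occurred in 1.55% of all windows, and these genes also moved in opposite directions in the kinase-dead line. The shorter form TGACG was not limited to them. It was found in 7 of 15 member entries, also for Cck, Chga, Tac1 and Tph1, and in 17.8% of all windows. The full element begins 72 bases before the RefSeq start of Chgb, a gene at chr2:132781278-132795079, plus strand, and 48 bases before that of Sst, a gene at chr16:23889573-23890958, minus strand. Both elements lie inside the first exon that GENCODE annotates. The 30 bases at chr2:132781559-132781588 and chr16:23890874-23890903 follow, 5′ to 3′ on the strand of the gene, with the element in capitals.
Chgb: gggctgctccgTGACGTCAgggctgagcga
Sst: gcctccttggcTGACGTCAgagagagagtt

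The 57 libraries held 15485959 to 32909565 counts. The columns of the kinase-dead line carry a line number and a letter for the treatment, and were matched to it by elimination. The counts of the targeted genes did not check the labels: Cdk8 was at 69.9 to 80.0 CPM (counts scaled to the same total in each library) in VillinCreERT2 organoids, at 64.7 to 67.3 CPM in those labelled CDK8iIEC-KO/Cdk19-/-, at 79.4 to 85.4 CPM in CDK8iIEC-KO and at 53.7 to 63.3 CPM in C57BL/6 organoids. In the same order Cdk19 was at 26.7 to 28.8, 27.3 to 27.7, 29.1 to 30.4 and 28.4 to 35.1 CPM. It was at 24.4 to 26.2 CPM in Cdk8 fl/fl/Cdk19-/- organoids, below every C57BL/6 library, but at 34.9 to 66.0 CPM in the time course line, whose label also gives Cdk19-/-. A deletion within a gene can leave the rest of its transcript, and the tables give no counts per exon, so groups are named by their labels throughout. The IECs were not free of other cells: markers of immune cells summed to 80.1 to 680 CPM in VillinCreERT2 and 914 to 1773 CPM in CDK8iIEC-KO/Cdk19-/- IECs. Enteric neurons are another source of these peptides, and their 10 markers summed to 1.67 to 12.6 CPM in organoid libraries. Ret made up most of this, at 1.47 to 10.3 CPM in the line of the time course and Wnt3-CM and 2.70 to 10.7 CPM in the others, Snap25 and Tubb3 reached 1.26 and 1.53 CPM, and Stmn2 had 1 count in total.

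**Figure D1:**
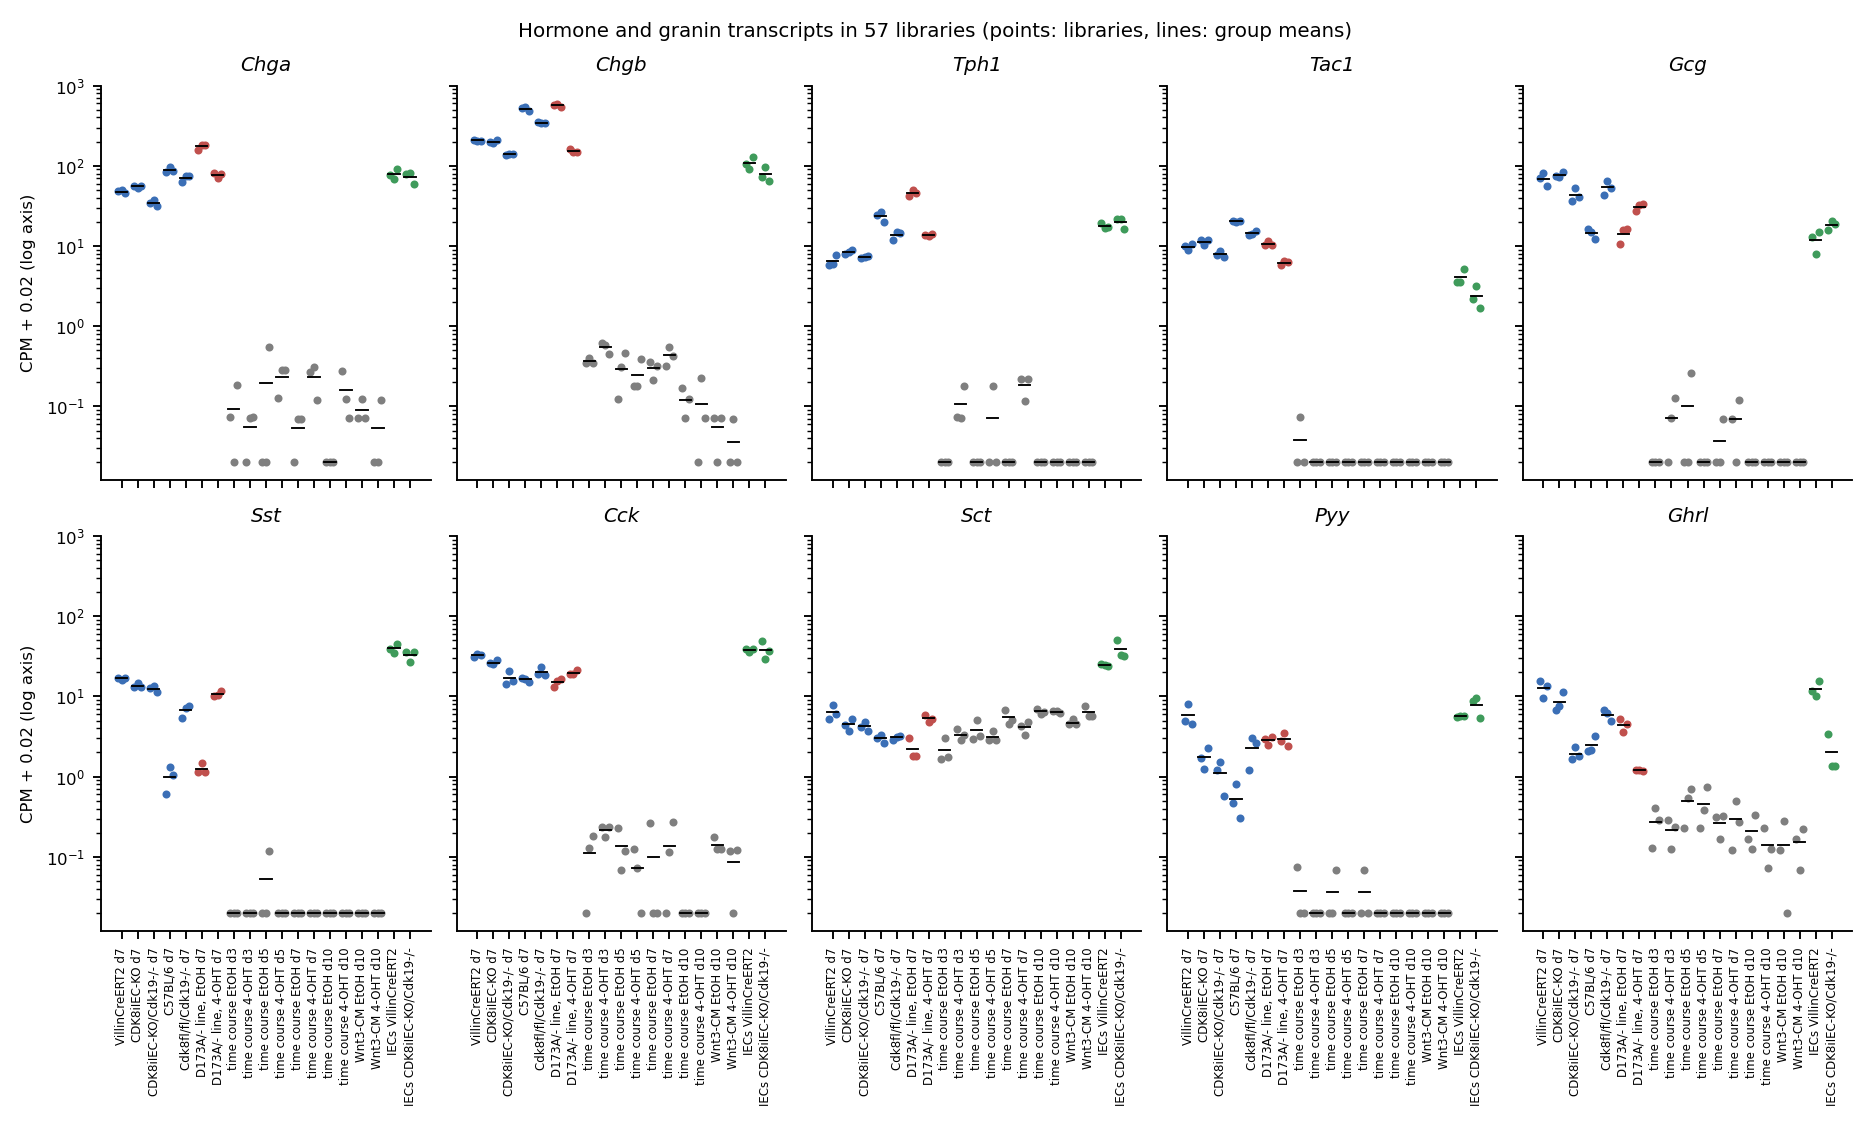
Each panel plots CPM plus 0.02 on a log axis for a member, with a point for each library and a line at the mean of each group of 3. Blue marks organoids of 5 genotypes, red the kinase-dead line, grey the time course and Wnt3-CM libraries, and green IECs. Among the grey points, 9 of the members lie at or under 0.732 CPM and Sct between 1.62 and 7.61 CPM.

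Chgb was the leading transcript in every organoid line that expressed the group. Levels of different genes are set side by side as CPM per kb of annotated exon. In VillinCreERT2 organoids Chgb stood at 75.4 ± 0.771 CPM per kb (SD, n = 3), then Gcg at 46.4 ± 8.45, Cck at 24.8 ± 1.02 and Sst at 23.2 ± 0.961, where Cck and Sst overlapped between libraries. Chga followed at 17.3 ± 0.803 and Ghrl at 11.9 ± 2.84. Sct at 9.81 ± 1.98 overlapped with Ghrl above it and with Pyy at 9.12 ± 3.00 below it, and Tac1 and Tph1 were lowest at 2.89 ± 0.279 and 1.05 ± 0.159.

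Controls differed in this order. In C57BL/6 organoids Chgb reached 188 ± 10.3 CPM per kb and made up 72.0% ± 0.278 of the summed level of the 10, against 34.0% ± 1.73 in VillinCreERT2 organoids. Chga came second at 32.3 ± 2.43 CPM per kb, and Ghrl, Sst and Pyy were the lowest, with Sst and Pyy overlapping.

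IECs had another order again, without the lead of Chgb. In VillinCreERT2 IECs Sst was highest at 55.1 ± 7.28 CPM per kb, ahead of Chgb at 39.1 ± 6.96 and Sct at 37.9 ± 0.973, which overlapped. Cck at 29.0 ± 1.23 and Chga at 28.6 ± 4.32 also overlapped. Ghrl at 11.5 ± 2.46 lay above Pyy and Gcg, and Tac1 was lowest at 1.19 ± 0.270 CPM per kb.

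**Figure D2:**
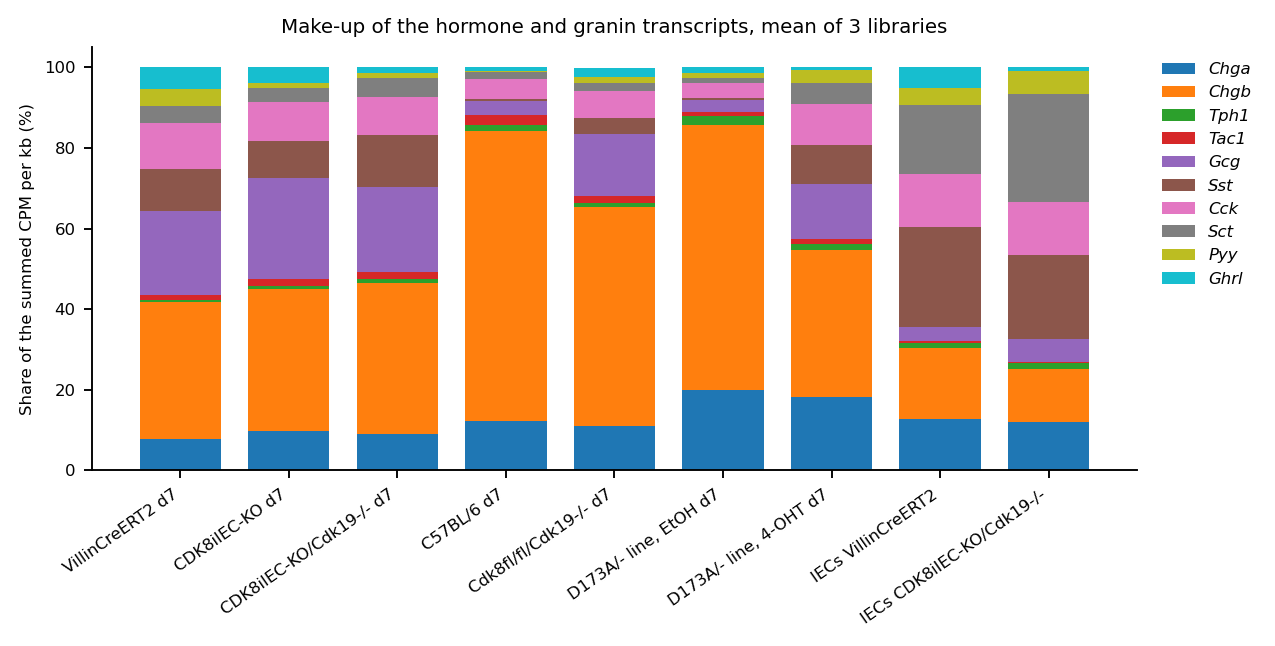
Stacked bars give the share of each member in the summed CPM per kb of the 10, in percent, as the mean of 3 libraries per group. Chgb takes 65.5% in EtOH and 36.6% in 4-OHT libraries of the kinase-dead line, and Sct takes 17.2% and 26.9% in VillinCreERT2 and CDK8iIEC-KO/Cdk19-/- IECs.

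The line of the time course and of Wnt3-CM had few or no counts of 9 of the 10 genes, in EtOH as in 4-OHT, with Sct as the exception. Over its 30 libraries Chgb summed to 135 counts, Ghrl to 144, Chga to 58, Cck to 49, Tph1 to 18, Gcg to 12, Pyy to 3, Sst to 2 and Tac1 to 1. No library of this line held more than 14 counts of any of these 9 genes. In the 21 other organoid libraries Chgb ranged from 134.5 to 597 CPM and Chga from 31.4 to 184 CPM, while the highest library of the time course line had 0.591 and 0.534 CPM. The ranges of these 9 genes did not overlap between the 30 and the 21 libraries, although for Ghrl, Pyy and Sst the lowest of the 21 were only at 1.15, 0.288 and 0.581 CPM. Sct, the gene for secretin, summed to 2702 counts and ranged from 1.62 to 7.61 CPM, against 1.78 to 7.74 CPM in the other organoids.

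Few genes behaved this way. Of 12094 genes with every group mean over 1 CPM in the other organoid lines, 74 (0.612%) were over 8-fold lower in every group of the time course line. They included 6 of the 8 members that reached that level (Chgb, Chga, Gcg, Tac1, Cck and Tph1). Of 11771 genes at 1 CPM or more in all 21 libraries, 28 (0.238%) had at most 3 counts in all 30, and Tac1 was the single member among them. The 24 time course libraries stand in a table of their own, but the 6 of Wnt3-CM share a table with the kinase-dead line, and within it Chgb had at most 1 count in the former and 147 to 597 CPM in the latter. These lines differ in genotype. The CDK8iIEC-KO/Cdk19-/- organoids of the 21 match the time course line in genotype, and at day 7 after 4-OHT Chgb was at 134, 140 and 140 CPM in the former and 0.301, 0.530 and 0.402 CPM in the latter, which differ in line and table. This comparison was chosen after the values were seen.

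Transcription factors of the lineage differed among themselves. Neurog3, the factor that commits progenitors, was at 1.49 to 31.5 CPM in the time course line and 2.00 to 9.01 CPM in the others, and Pax4, its early target, at 0.412 to 10.7 and 0.329 to 3.78 CPM. Both were highest at day 3, where EtOH libraries held 31.5, 27.3 and 27.0 CPM of Neurog3. Several later factors were at or near 0: Neurod1 summed to 2 counts over 30 libraries, Nkx2-2 to 3, Isl1 to 2 and Lmx1a to 0. In the other organoids Neurod1 was at 2.55 to 7.02 CPM and Nkx2-2 at 1.79 to 9.32 CPM. Insm1, at 0.0522 to 5.01 CPM, and Rfx6, at up to 2.39 CPM, overlapped with the other lines, while Fev, at up to 0.980 CPM, did not. Of 20 transcription factors on the list, 15 had every group mean over 1 CPM elsewhere, and 5 of these were among the 74 genes.

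Granule and amine genes differed among themselves too. Pcsk1, which cleaves prohormones, reached at most 0.568 CPM against 9.21 to 17.4 CPM elsewhere, and the granin Scg2 summed to 2 counts. Ddc and Slc18a1, which make and package amines, were present at 44.2 to 240 and 14.2 to 34.6 CPM, and overlapped with the other lines. The hormone genes Gip and Nts were at or under 0.216 and 0.198 CPM, against at least 19.0 and 4.01 CPM. Iapp was low in both, at up to 1.07 CPM with 132 counts in all, against 0.0353 to 0.681 CPM in the others, and overlapped with them. Reg4, a secretory lectin also made by goblet cells, was at 44.9 to 254 CPM against 79.3 to 205 CPM. Of the 74 genes, 3 were granule or amine genes and 3 were hormones outside the 10.

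**Figure D3:**
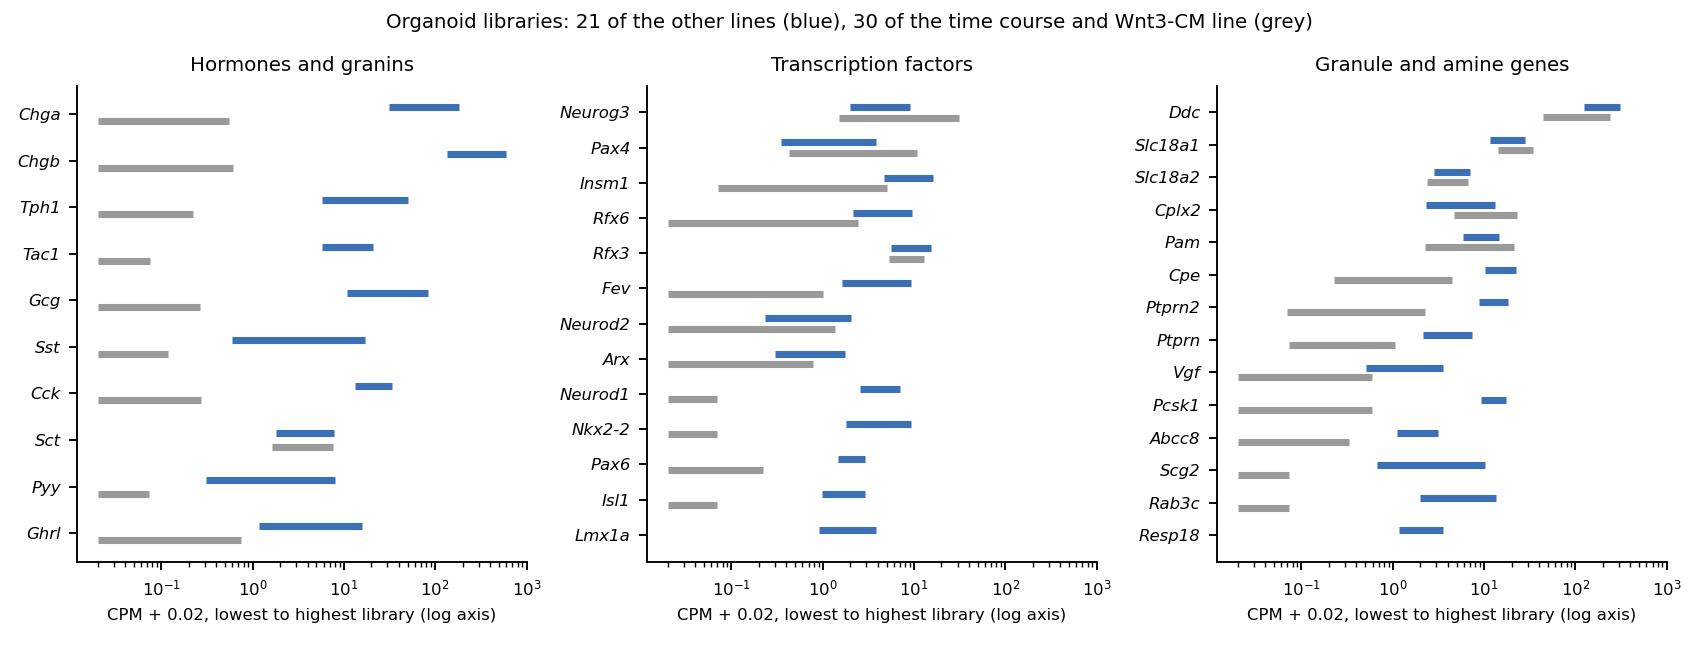
Bars run from the lowest to the highest library in CPM plus 0.02 on a log axis, in blue for 21 organoid libraries of the other lines and in grey for the 30 of the time course and Wnt3-CM line. A gene with no grey bar was at 0 counts in all 30. The bars overlap for Sct, Neurog3, Pax4 and Rfx3, and lie apart for Chgb, Neurod1 and Nkx2-2.

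In the kinase-dead line 4-OHT moved the hormones in opposite directions. Chgb, Ghrl, Tph1, Chga and Tac1 fell and Sst, Sct and Gcg rose, so that 8 of 10 members were called, 5 lower and 3 higher. A gene was called when its adjusted p in edgeR's quasi-likelihood test was under 0.05 and its fold change above 1.5, which here held for 12.3% of all 15457 genes tested, 6.25% lower and 6.05% higher. The median log2 fold change was -0.29 over the members and 0.01 over all genes. Fewer cells of a type and less RNA per cell cannot be told apart in these bulk libraries.

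The granins, Tph1 and Tac1 fell. Chgb, at 568, 597 and 537 CPM in the 3 EtOH libraries, was at 160, 147 and 150 CPM in the 4-OHT libraries. All 4-OHT values lay far below the EtOH values, with a log2 fold change of -1.81 ± 0.07 (SE), adjusted p = 1.26e-07, a 3.50-fold fall. Chga was at 157, 184 and 183 CPM in EtOH and 80.7, 70.3 and 77.9 CPM in 4-OHT, again without overlap (log2 fold change -1.10 ± 0.08 (SE), adjusted p = 6.54e-06). Tph1, the rate-limiting enzyme of serotonin synthesis in the gut, went from 41.5, 50.4 and 46.3 to 13.8, 13.4 and 13.9 CPM (log2 fold change -1.66 ± 0.09 (SE), adjusted p = 9.09e-07). Tac1, which encodes substance P, fell least, from 10.4, 11.5 and 10.2 to 5.77, 6.47 and 6.26 CPM (log2 fold change -0.70 ± 0.12 (SE), adjusted p = 0.00155). The libraries of both arms stayed apart for each of these genes.

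Ghrl, the gene for ghrelin, fell with them. It was at 5.15, 3.62 and 4.46 CPM in EtOH and 1.18, 1.19 and 1.15 CPM in 4-OHT libraries, a log2 fold change of -1.82 ± 0.20 (SE), adjusted p = 1.20e-04. Exons of Ghrl overlap those of the antisense genes Gm26982 and Gm44033 in GENCODE, which had at most 83 and 7 counts in any library, and the counting strand is not given in the sources used here. Gm26982 was at 1.93 to 2.45 CPM in EtOH and 1.73 to 2.93 CPM in 4-OHT libraries of this line.

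Sst, Gcg and Sct rose. Sst, the gene for the inhibitory hormone somatostatin, was at 1.13, 1.45 and 1.11 CPM in EtOH and 10.0, 10.3 and 11.8 CPM in 4-OHT libraries, so the lowest 4-OHT library lay far above the highest EtOH library. Its log2 fold change was 3.21 ± 0.16 (SE), adjusted p = 8.26e-07, or 9.25-fold, the largest of any member in this line. Gcg, the gene for proglucagon, from which GLP-1 and GLP-2 are cut, was at 10.7, 15.7 and 16.4 against 27.4, 32.0 and 33.7 CPM (log2 fold change 1.21 ± 0.15 (SE), adjusted p = 4.20e-04). Sct was at 3.00, 1.79 and 1.78 against 5.90, 4.83 and 5.19 CPM (log2 fold change 1.36 ± 0.22 (SE), adjusted p = 0.00146). For both, every 4-OHT library exceeded every EtOH library.

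Neither of the other hormones passed the cutoffs. Cck, at 13.2, 15.6 and 16.6 CPM in EtOH and 19.3, 18.9 and 21.3 CPM in 4-OHT libraries, had a log2 fold change of 0.48 ± 0.10 (SE), adjusted p = 0.00585, under the fold cutoff although its libraries did not overlap. Pyy, at 2.93, 2.45 and 3.12 against 2.77, 3.52 and 2.42 CPM, had a log2 fold change of 0.13 ± 0.20 (SE), adjusted p = 0.664, with a 95% interval of -0.30 to 0.56, and its libraries overlapped.

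The make-up of the group shifted accordingly. The share of Chgb in the summed CPM per kb was 65.5% ± 2.17 in EtOH and 36.6% ± 1.46 in 4-OHT libraries (SD, n = 3). Over the same arms the share of Sst was 0.538% ± 0.0613 and 9.76% ± 0.745, that of Gcg 3.02% ± 0.625 and 13.7% ± 1.47, and that of Sct 1.08% ± 0.376 and 5.41% ± 0.489. Chga kept nearly the same share, 20.1% ± 1.42 and 18.2% ± 0.918. The summed CPM per kb of the 10 ran from 307.0 to 331 in EtOH and from 148 to 155 in 4-OHT libraries.

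Of the other lists in this line, the transcription factors mostly fell: 10 of 20 were called lower and 2 higher. Neurod2 (-1.88 on the log2 scale, adjusted p = 0.00308), Pax4 (-1.56, adjusted p = 0.00139) and Neurog3 (-1.54, adjusted p = 1.55e-04) were among those lower, and Peg3 was higher (5.98, adjusted p = 9.84e-04). Of 19 granule and amine genes tested, 6 were higher, led by Scg5 (3.45, adjusted p = 0.00191), Pcsk1n (2.06), Scg3 (1.91) and Cadps (1.91), and 3 were lower. Of 3 other hormone genes tested, Nts (2.36, adjusted p = 8.26e-07) and Gip (1.61, adjusted p = 4.14e-06) rose. The lectin gene Reg4 fell (-0.78, adjusted p = 1.04e-04).

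Markers of other cells moved in the same libraries. Of 11 Paneth, goblet and tuft markers tested, 6 were lower and 2 higher, with the list summing to 6745 to 7383 CPM in EtOH and 4472 to 5290 CPM in 4-OHT. Of 10 enterocyte markers, 5 were higher, with sums of 31740 to 36890 and 40970 to 42090 CPM. On the mast cell list Kit was lower (-1.27 on the log2 scale) and Hdc higher (1.32), while Cpa3 had 0 counts. The mesenchyme marker Vim was lower (-0.85). Of 8 proximal markers 4 were higher, and of 6 distal markers tested 1 was higher and 2 lower. Their part in the hormone results was not tested. The distal marker Fabp6 was near 0 in both arms, at a mean of 0.127 and 0.120 CPM.

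**Figure D4:**
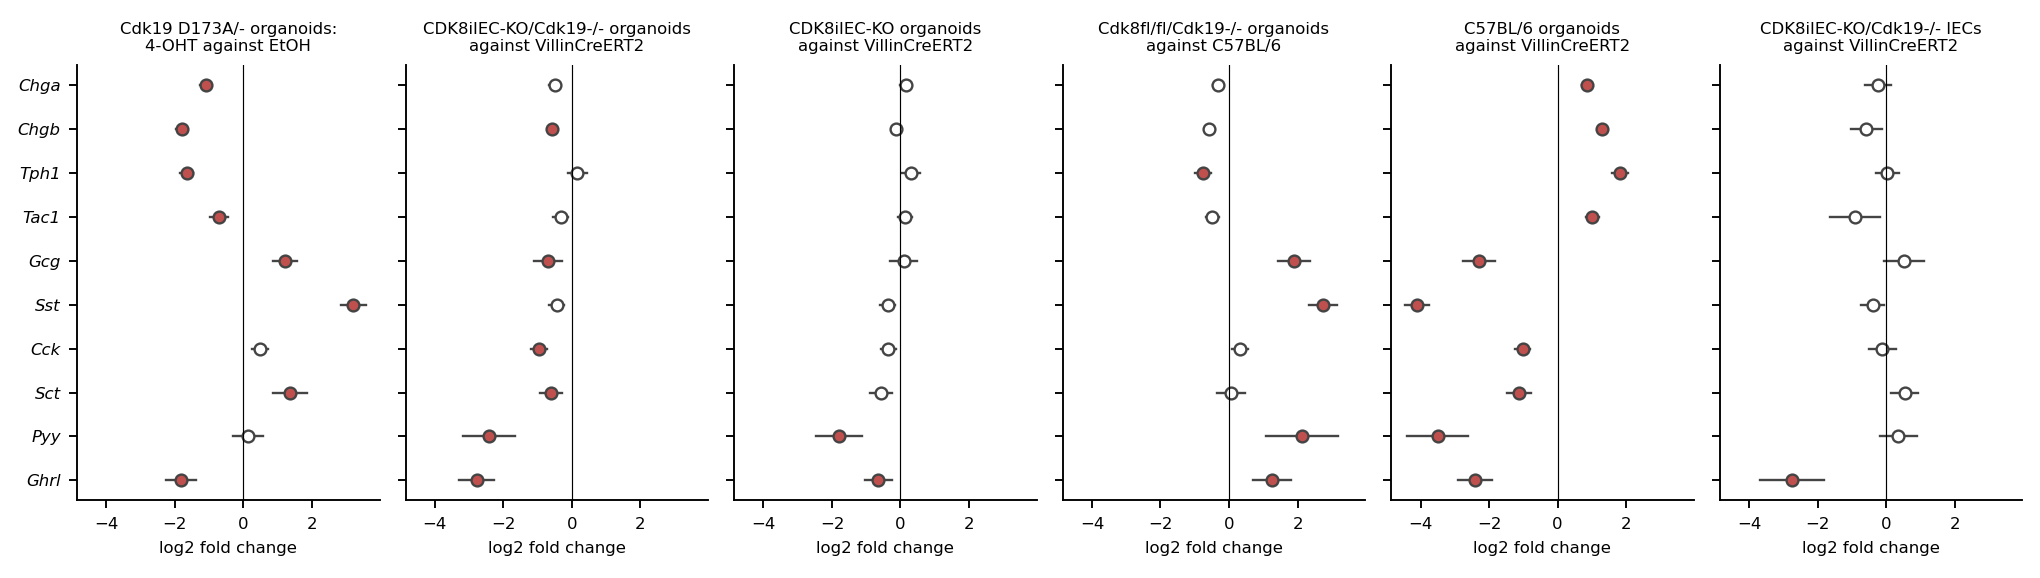
Points give the log2 fold change of each member in 6 comparisons, bars its 95% interval, and filled points mark genes past both cutoffs. Ghrl is filled in all 6 panels, below 0 in 5 and above 0 in Cdk8 fl/fl/Cdk19-/- organoids. In the kinase-dead line Chgb and Sst lie at -1.81 and 3.21.

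CDK8iIEC-KO/Cdk19-/- organoids had less of most hormones than VillinCreERT2 organoids at day 7. Ghrl, Pyy, Cck, Gcg, Sct and Chgb were called lower and no member higher, so 6 of 10 were called, where 7.95% of all 15125 genes were called lower and 19.4% in either direction. The median log2 fold change was -0.60 over the members and -0.00 over all genes. Ghrl and Pyy fell most.

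Ghrl was at 15.6, 9.56 and 13.5 CPM in VillinCreERT2 and 1.63, 2.30 and 1.77 CPM in CDK8iIEC-KO/Cdk19-/- libraries, a log2 fold change of -2.77 ± 0.24 (SE), adjusted p = 3.26e-08. Pyy, the gene for the appetite-lowering peptide YY, was at 4.89, 7.93 and 4.46 against 1.19, 1.51 and 0.554 CPM (log2 fold change -2.42 ± 0.36 (SE), adjusted p = 2.82e-05). Neither gene overlapped between the groups. Cck, the gene for cholecystokinin, was at 30.8, 33.4 and 32.8 against 14.2, 20.9 and 15.6 CPM (log2 fold change -0.95 ± 0.11 (SE), adjusted p = 1.62e-07).

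Gcg was at 69.8, 81.7 and 56.5 CPM in VillinCreERT2 and 36.0, 53.2 and 40.8 CPM in CDK8iIEC-KO/Cdk19-/- libraries (log2 fold change -0.70 ± 0.18 (SE), adjusted p = 0.00763). Chgb was at 209, 205 and 206 against 134, 140 and 140 CPM (log2 fold change -0.60 ± 0.05 (SE), adjusted p = 5.86e-10). Sct was at 5.26, 7.74 and 5.97 against 4.18, 4.71 and 3.71 CPM (log2 fold change -0.61 ± 0.16 (SE), adjusted p = 0.00234). The last 3 genes lie close to the fold cutoff, and without a single library (VillinCreERT2 replicate 2 for Gcg and Sct, CDK8iIEC-KO/Cdk19-/- replicate 1 for Chgb and 3 for Sct) their log2 fold changes of -0.56, -0.43, -0.58 and -0.51 fell below it.

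Chga, Sst and Tac1 had adjusted p-values of 6.52e-06, 0.00135 and 0.0104 with log2 fold changes of -0.50, -0.44 and -0.33, under the fold cutoff. Tph1, at 5.78, 6.02 and 7.59 against 7.05, 7.23 and 7.49 CPM, overlapped between the groups (log2 fold change 0.15 ± 0.13 (SE), adjusted p = 0.354, 95% interval -0.12 to 0.43).

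Of the 20 transcription factors, 9 were called lower and none higher, with Peg3 (-1.25, adjusted p = 7.49e-05), St18 (-0.97), Nkx2-2 (-0.86, adjusted p = 6.44e-05) and Foxa1 (-0.81) the largest. Of 18 granule and amine genes tested, 4 were lower, led by Rab3c (-0.80) and the granule phosphatase Ptprn2 (-0.77), and of 4 other hormone genes and Reg4 edgeR called none, with 2 at an unadjusted p under 0.05. Regional markers moved in the same comparison: 6 of 7 distal genes tested were lower, with the ileal bile acid binding protein Fabp6 at 205 ± 94.2 CPM in VillinCreERT2 and 19.0 ± 13.8 CPM in CDK8iIEC-KO/Cdk19-/- organoids, and 3 of 8 proximal genes were higher. Of 11 Paneth, goblet and tuft markers 8 were lower. Their part in the hormone results was not tested.

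CDK8iIEC-KO organoids differed from VillinCreERT2 organoids in 2 members, Pyy and Ghrl, both lower, where 7.23% of genes were called and 4.34% were called lower. The median log2 fold change was -0.24 over the members and 0.02 over all genes. Pyy was at 1.68, 1.22 and 2.27 CPM, below all VillinCreERT2 libraries (log2 fold change -1.80 ± 0.32 (SE), adjusted p = 4.23e-04). Ghrl was at 6.81, 7.66 and 11.2 CPM and overlapped with VillinCreERT2 (log2 fold change -0.65 ± 0.19 (SE), adjusted p = 0.0126). Its adjusted p was 0.0634 without VillinCreERT2 replicate 1, 0.0635 without CDK8iIEC-KO replicate 1 and 0.0549 without replicate 2. Sct (-0.57, adjusted p = 0.00646), Sst (-0.37, adjusted p = 0.0102) and Cck (-0.36, adjusted p = 0.0106) stayed under the fold cutoff, which Sct passed without VillinCreERT2 replicate 1 (-0.69) or 3 (-0.61) or CDK8iIEC-KO replicate 3 (-0.70). Chga, Chgb, Gcg, Tac1 and Tph1 had log2 fold changes from -0.12 to 0.32 and adjusted p-values from 0.06 upward. Fabp6 was at 6.76 ± 1.24 CPM in this line, and its part was not tested. Of the transcription factors 1 of 20 (Peg3) and of the granule and amine genes 1 of 18 (Slc18a1) were lower, and of 4 other hormone genes and Reg4 edgeR called none, with 3 at an unadjusted p under 0.05.

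Cdk8 fl/fl/Cdk19-/- organoids had more Sst, Pyy, Gcg and Ghrl and less Tph1 than C57BL/6 organoids, 5 of 10 members called (4 higher and 1 lower) against 5.25% of genes (2.86% higher and 2.39% lower). The median log2 fold change was 0.19 over the members and -0.01 over all genes. Sst was at 0.581, 1.30 and 1.03 CPM in C57BL/6 and 5.39, 7.08 and 7.51 CPM in Cdk8 fl/fl/Cdk19-/- libraries (log2 fold change 2.75 ± 0.20 (SE), adjusted p = 6.36e-11). Gcg was at 16.3, 14.8 and 12.2 against 43.2, 65.0 and 53.0 CPM (log2 fold change 1.91 ± 0.21 (SE), adjusted p = 9.47e-05). Neither gene overlapped between the groups.

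Pyy, with 7, 14 and 5 counts in C57BL/6 and 21, 52 and 46 in Cdk8 fl/fl/Cdk19-/- libraries, had a log2 fold change of 2.13 ± 0.50 (SE), adjusted p = 0.00738, and an adjusted p of 0.06 without C57BL/6 replicate 3. Ghrl was at 2.07, 2.15 and 3.16 against 6.65, 6.10 and 4.91 CPM (log2 fold change 1.25 ± 0.26 (SE), adjusted p = 0.00304), and Tph1 at 24.1, 26.3 and 19.8 against 11.7, 15.1 and 14.4 CPM (log2 fold change -0.76 ± 0.11 (SE), adjusted p = 1.17e-05). The groups stayed apart for all 3 genes. Chgb (-0.57, adjusted p = 3.33e-09), Tac1 (-0.49, adjusted p = 4.55e-04) and Chga (-0.32, adjusted p = 0.00279) were lower in every library and under the fold cutoff, which Chgb passed without C57BL/6 replicate 3 (-0.60). Cck (0.33, adjusted p = 0.0622) and Sct (0.05, adjusted p = 0.898) passed neither cutoff. Of the 20 transcription factors 6 were lower, among them Pax4 (-1.20) and Neurod2 (-0.92), and Peg3 was higher (2.80). Of 18 granule and amine genes 3 were higher, led by Scg2 (2.86), and Cplx2 was lower (-0.76). Here too distal markers differed, 4 of 7 higher, with Fabp6 at 0.235 ± 0.201 CPM in C57BL/6 and 39.2 ± 8.95 CPM in Cdk8 fl/fl/Cdk19-/- organoids, and their part was not tested.

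The control lines themselves differed in all 10 members, against 26.4% of genes (15.5% higher and 10.9% lower). In C57BL/6 organoids Tph1 (1.83 on the log2 scale), Chgb (1.29), Tac1 (1.02) and Chga (0.87) were higher than in VillinCreERT2 organoids. Sst (-4.10), Pyy (-3.50), Ghrl (-2.40), Gcg (-2.30), Sct (-1.12) and Cck (-1.02) were lower, with a highest adjusted p of 3.53e-06 among the 10. The difference between controls was larger than that of CDK8iIEC-KO/Cdk19-/- organoids from their control for 9 of the 10 members, all but Ghrl, by the size of the log2 fold change.

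Set against the sum of the changes in the single knockouts, each from its own control, the change in CDK8iIEC-KO/Cdk19-/- organoids was lower for Ghrl, Sst, Pyy, Gcg and Cck and higher for Tph1. These 6 members were called where 19.6% of genes were, 8.34% lower and 11.3% higher. The contrast was -3.38 for Ghrl (adjusted p = 1.22e-06), -2.83 for Sst (adjusted p = 5.58e-10) and 0.59 for Tph1 (adjusted p = 0.00621). Tph1 lost the call without any of 5 single libraries, C57BL/6 replicate 1 or 2, CDK8iIEC-KO replicate 1 or 2 or Cdk8 fl/fl/Cdk19-/- replicate 1, with values from 0.50 to 0.58. For Ghrl, Sst, Pyy and Gcg it contains the rise in Cdk8 fl/fl/Cdk19-/- over C57BL/6 organoids described above.

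Over the 21 organoid libraries of these lines and of the kinase-dead line, the levels of some members rose and fell together. On log2 CPM the Pearson r was 0.948 for Chga and Tph1, 0.832 for Chgb and Tph1 and 0.889 for Gcg and Sst. It was -0.901 for Chgb and Sst and -0.854 for Gcg and Tph1. These libraries form 7 groups of 3 from 6 lines and share line and table, so the values are a description.

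In IECs Ghrl was the single member called, lower in CDK8iIEC-KO/Cdk19-/- mice, where 1.5% of 15182 genes were called and 0.856% were called lower. The median log2 fold change was -0.17 over the members and 0.00 over all genes. Ghrl had 225, 194 and 297 counts in VillinCreERT2 and 62, 26 and 26 counts in CDK8iIEC-KO/Cdk19-/- libraries, or 11.7, 10.2 and 15.3 against 3.41, 1.33 and 1.32 CPM, and the groups did not overlap. Its log2 fold change was -2.75 ± 0.39 (SE), adjusted p = 0.0361. The adjusted p was 0.0975 without VillinCreERT2 replicate 1, 0.13 without VillinCreERT2 replicate 3, 0.0969 without CDK8iIEC-KO/Cdk19-/- replicate 3 and 0.0809 with the replicate number as a block, with log2 fold changes from -2.53 to -2.84. The overlapping antisense gene Gm26982 was also lower in every CDK8iIEC-KO/Cdk19-/- library, at 0.860 to 1.59 against 1.73 to 2.43 CPM, and its part was not tested.

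The other 9 members did not pass. Sct was at 25.0, 24.5 and 23.8 against 51.0, 32.5 and 32.2 CPM, higher in every CDK8iIEC-KO/Cdk19-/- library (log2 fold change 0.54 ± 0.17 (SE), adjusted p = 0.166). Gcg, at 12.8, 7.82 and 15.1 against 15.8, 20.7 and 18.9 CPM, also did not overlap between the groups (log2 fold change 0.52 ± 0.25 (SE), adjusted p = 0.3). Tac1 was at 3.54, 3.51 and 5.12 against 2.15, 3.17 and 1.67 CPM, all lower (log2 fold change -0.91 ± 0.31 (SE), adjusted p = 0.184).

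Chgb (-0.57, 95% interval -1.02 to -0.12), Sst (-0.39, -0.73 to -0.06), Chga (-0.23, -0.60 to 0.15), Cck (-0.11, -0.49 to 0.28), Pyy (0.35, -0.19 to 0.89) and Tph1 (0.04, -0.30 to 0.38) overlapped between the groups. Of the other hormones Nts, the gene for neurotensin, rose (1.26, adjusted p = 0.0417). Of 19 granule and amine genes tested Pam, which amidates peptides, rose (0.73, adjusted p = 0.0332), and of 19 transcription factors edgeR called none, with 3 at an unadjusted p under 0.05. Of 11 Paneth, goblet and tuft markers 6 were lower.

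Levels of other cell types' markers are given for these IEC libraries. edgeR called none of the immune, mesenchyme, enteric neuron, mast cell and pancreas markers tested, with 6 of 10, 1 of 10, 2 of 4, 2 of 4 and 5 of 5 at an unadjusted p under 0.05. All 10 immune markers were above 3 counts in both groups, and their sums are given above. Mesenchyme markers summed to 13.2 to 868 CPM in VillinCreERT2 and 485 to 1066 CPM in CDK8iIEC-KO/Cdk19-/- IECs, enteric neuron markers to 7.39 to 10.3 and 11.9 to 21.4 CPM, mast cell markers to 19.5 to 29.4 and 37.6 to 81.0 CPM, and pancreas markers to 1.15 to 4.56 and 6.33 to 55.6 CPM. Of 10 enteric neuron markers 7 were above 3 counts in VillinCreERT2 and 8 in CDK8iIEC-KO/Cdk19-/- IECs. Their part in the hormone values was not tested.

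The change in IECs was set against that in organoids of the same genotypes in a joint fit, chosen after the data were seen, which called 9.11% of genes, 4.35% higher. It called 4 members, all higher in IECs than in organoids relative to their controls: Pyy (2.80 ± 0.46 (SE), adjusted p = 0.00334), Gcg (1.25 ± 0.33 (SE), adjusted p = 0.0308), Sct (1.17 ± 0.26 (SE), adjusted p = 0.0127) and Cck (0.88 ± 0.22 (SE), adjusted p = 0.0242). For Ghrl the difference was 0.05 with a 95% interval of -0.92 to 1.02. Gcg lost the call without any of 7 single libraries (VillinCreERT2 IEC replicate 1, CDK8iIEC-KO/Cdk19-/- IEC replicate 2 or 3, VillinCreERT2 organoid replicate 1 or 2 and CDK8iIEC-KO/Cdk19-/- organoid replicate 1 or 3), with adjusted p-values up to 0.0781, and its adjusted p was 0.0553 with the replicate number as a block. Cck lost it without any of 6 (VillinCreERT2 IEC replicate 1 or 3, VillinCreERT2 organoid replicate 2 or 3 and CDK8iIEC-KO/Cdk19-/- organoid replicate 1 or 3), with adjusted p-values up to 0.071.

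In the time course only Chgb, Sct and Ghrl passed the filter on low counts, and none was called for 4-OHT against EtOH at any day, where 12.4%, 13.2%, 18.3% and 15.8% of 15447 genes were called at days 3, 5, 7 and 10. No member had an unadjusted p under 0.05 but Sct at day 3, where it was 0.0379. Sct was at 1.62, 2.99 and 1.74 CPM in EtOH and 3.87, 2.84 and 3.24 CPM in 4-OHT libraries at day 3, which overlapped (log2 fold change 0.53 ± 0.24 (SE), adjusted p = 0.0939). Without EtOH replicate 2 the value was 0.87 with an adjusted p of 0.0158. At day 7 it was at 6.82, 4.55 and 5.02 against 4.31, 3.32 and 4.73 CPM (log2 fold change -0.35 ± 0.21 (SE), adjusted p = 0.173), and at day 10 at 7.02, 6.07 and 6.38 against 6.59, 6.47 and 6.21 CPM (log2 fold change 0.04 ± 0.20 (SE), adjusted p = 0.884). At day 5 the log2 fold change was -0.33 ± 0.22 (SE), adjusted p = 0.261. The 95% interval was 0.03 to 1.03 at day 3 and -0.36 to 0.44 at day 10.

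Of 12 of the lineage's transcription factors tested, 2 were called higher at day 3, 2 lower at day 5, none at day 7 (2 at an unadjusted p under 0.05 in edgeR's test) and 4 lower at day 10. The shares of all genes called were 12.4%, 13.2%, 18.3% and 15.8%, so that the counts at days 3 and 5 were near the background and that at day 7 below it. At day 10 the median log2 fold change was -0.91 over the list and 0.02 over all genes. Those higher at day 3 were Foxa1 (0.94 on the log2 scale) and Foxa2 (0.59), and those lower at day 5 were Insm1 (-1.01) and Neurog3 (-0.67, with overlapping libraries). At day 10 Neurog3 was at 3.66, 5.23 and 6.12 CPM in EtOH and 1.49, 2.92 and 2.66 CPM in 4-OHT libraries, with no overlap (log2 fold change -1.02 ± 0.25 (SE), adjusted p = 0.00192). Pax4 (-1.46, adjusted p = 0.00123) and Insm1 (-2.49, adjusted p = 3.37e-05) fell without overlap too, while Neurod2 (-2.38, adjusted p = 0.0371) rests on 1, 12 and 5 counts against 2, 1 and 0.

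Of the other hormone genes only Iapp, which encodes amylin, passed the filter. It was called higher at day 7 (2.06 ± 0.78 (SE), adjusted p = 0.0307), from 2, 1 and 3 counts in EtOH to 3, 7 and 15 in 4-OHT libraries, which overlapped. Reg4 was called lower at days 5, 7 and 10 (log2 fold changes from -0.84 to -0.69). Of 8 granule and amine genes tested, 1 was lower at day 3, 1 higher and 1 lower at day 5, 1 lower at day 7, and 1 higher (Ddc, 0.80) and 2 lower (Ptprn2, -2.05, and Cpe, -1.27) at day 10.

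Markers of other cells moved in these libraries. Of 10 Paneth, goblet and tuft markers tested, 1, 7, 6 and 7 were lower at days 3, 5, 7 and 10 and none higher, and at day 10 the list summed to 10220 to 10730 CPM in EtOH and 3764 to 4178 CPM in 4-OHT. Of 10 enterocyte markers 7 were lower at day 3, 2 higher and 3 lower at day 5, 2 higher at day 7 and 4 higher at day 10. Among regional markers Mep1a was higher at days 5, 7 and 10 (1.58, 2.36 and 1.88 on the log2 scale). Slc10a2 was higher at days 3, 5 and 7 (1.75, 1.27 and 1.78). Adh1 (-1.92) and Cyp3a11 (-1.93) were lower at day 3, and Guca2a at days 3, 5 and 7 (-0.60, -0.85 and -0.65). Of 2 enteric neuron markers tested Ret was higher at days 3 (0.79 on the log2 scale) and 7 (0.89). Immune markers called were Cd68, higher at day 3 (1.51, adjusted p = 1.06e-06), and Itgae, higher at day 5 (2.59, adjusted p = 0.00406), of 3 tested. The mast cell list had Kit lower at days 3, 5 and 10 (-1.42 at day 10) and Hdc higher at day 7 (1.24), and the pancreas list Pnlip higher at days 3 and 10 (1.06 at day 10). Several other genes of these lists were at or near 0 in all 30 libraries of this line. Cpa3, Tpsb2 and Cma1 had at most 1, 5 and 3 counts, although Mcpt2 reached 53. Ptprc and Cd3e had at most 7 and 2 counts, and Ins1, Ins2, Cpa1, Prss2 and Ptf1a had 0. The mesenchyme marker Col1a1 was lower at day 7 (-3.69, adjusted p = 0.0105), where 1 library stood apart: EtOH replicate 2 held 531 counts of Col1a1, 126 of Acta2, 100 of Col1a2 and 83 of Vim, and mesenchyme markers summed to 1.56 to 42.8 CPM in EtOH and 1.31 to 1.96 CPM in 4-OHT libraries. Without it the log2 fold change of Sct at day 7 was -0.49 (adjusted p = 0.0841). Their part in the values above was not tested.

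Sct rose with time in culture. In EtOH libraries it was higher at day 10 than at day 3 in every library, with a log2 fold change of 1.60 ± 0.23 (SE), adjusted p = 4.28e-07, in a comparison that called 38.4% of genes (16.0% higher and 22.4% lower). Neurog3 and Pax4 went the other way in the same libraries, from means of 28.6 and 10.3 CPM at day 3 to 5.00 and 1.36 CPM at day 10. Markers of other cells moved both ways, among them Lyz1 (1.41) and Fabp2 (1.65) higher and Trpm5 (-2.09) and Kit (-1.20) lower. Their part was not tested. Chgb had 6, 7 and 6 counts at day 3 and 3, 1 and 2 counts at day 10 (log2 fold change -1.70 ± 0.67 (SE), adjusted p = 0.0255). These few counts make the value imprecise, and without day 3 replicate 2 or day 10 replicate 2 or 3 the adjusted p was 0.0607, 0.0979 and 0.0568.

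Chgb had log2 fold changes between -0.33 and 0.61 for 4-OHT over the 4 days, with adjusted p-values of at least 0.355. Ghrl had at most 14 counts in a library of the time course and log2 fold changes between -0.55 and 0.24 for 4-OHT, with adjusted p-values of at least 0.609. The response at day 10 was not called different from that at day 3 for any of the 3 genes (adjusted p from 0.211 to 0.962, with 26.3% of genes called), and for Sct that difference was -0.49 with a 95% interval of -1.13 to 0.15. Without EtOH day 3 replicate 2 it was -0.83 with an adjusted p of 0.0446.

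Hormones were also compared with each other within these libraries. The log2 ratio of each of the 3 pairs was tested by an exact two-sided permutation within days over 160000 arrangements. The mean shift in 4-OHT was 0.07 for Chgb to Sct (adjusted p = 0.78), 0.10 for Chgb to Ghrl (adjusted p = 0.24) and 0.03 for Sct to Ghrl (adjusted p = 0.819), on the scale of log2 CPM plus 1, which understates changes of genes this low.

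In Wnt3-CM only Sct could be tested. It was at 4.49, 5.13 and 4.48 CPM in EtOH and 7.61, 5.66 and 5.70 CPM in 4-OHT libraries, with no overlap, and its log2 fold change of 0.39 ± 0.16 (SE), adjusted p = 0.0472 stayed under the fold cutoff, where 16.9% of genes were called. Set against the response at day 10 without Wnt3-CM, the difference was 0.35 ± 0.20 (SE), adjusted p = 0.212, in a contrast that called 13.3% of genes. Chgb had 1, 0 and 1 counts in EtOH and 0, 1 and 0 in 4-OHT libraries, and Tac1, Tph1, Sst, Pyy and Gcg were at 0 in all 6. Of 7 transcription factors tested 4 were lower, Insm1 (-2.37 on the log2 scale, adjusted p = 2.14e-05), Pax4 (-1.73, adjusted p = 7.70e-05), Neurog3 (-1.45, adjusted p = 1.23e-06) and Myt1 (-1.13, adjusted p = 0.0325). No other hormone gene could be tested. Reg4 was lower (-0.81), as were 3 of 7 granule and amine genes, with 1 higher. Of 11 Paneth, goblet and tuft markers tested 9 were lower, with sums of 7731 to 8849 CPM in EtOH and 3215 to 3538 CPM in 4-OHT, and of 10 enterocyte markers 6 were higher. Their part in these values was not tested.

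Sct was the member whose response could be compared between the kinase-dead line and the time course at day 7. It rose after 4-OHT by 1.36 in the former and had a log2 fold change of -0.35 in the latter, a difference of 1.71 ± 0.32 (SE), adjusted p = 0.00172, in a contrast that called 11.1% of genes. The fit called 4 further members, Chga, Chgb, Tph1 and Ghrl, but these had at most 11 counts in any day 7 library of the time course, so no value is given for them.

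**Figure D5:**
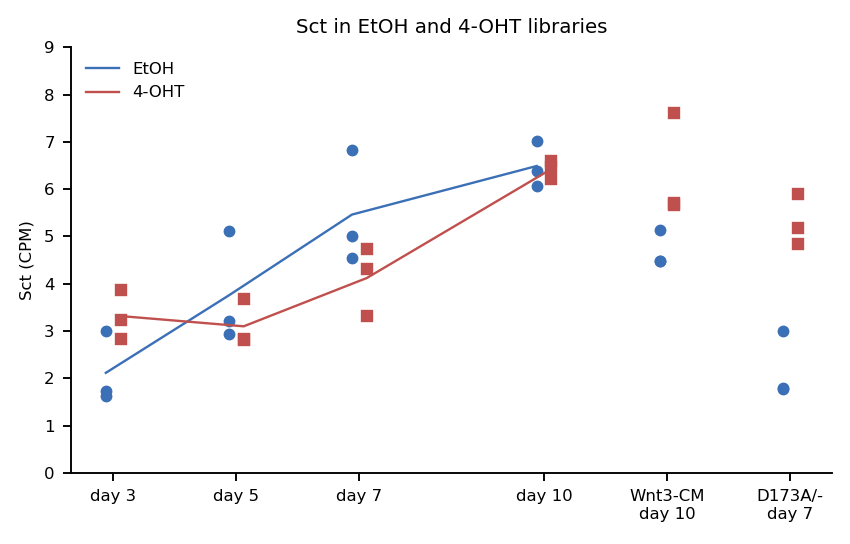
Sct in CPM for each library with EtOH (circles) or 4-OHT (squares), over days 3 to 10 of the time course with lines through the means, and beside it in Wnt3-CM at day 10 and in the kinase-dead line at day 7. EtOH means run from 2.12 CPM at day 3 to 6.49 CPM at day 10, and the kinase-dead line has means of 2.19 CPM in EtOH and 5.31 CPM in 4-OHT.

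The genes whose log2 CPM followed a member most closely over the 24 time course libraries were Fbxo33 (Pearson r = 0.885), Nploc4 (0.881) and Letm1 (0.867) for Sct, Thpo (0.838), Hif3a (0.821) and Gm4540 (0.809) for Chgb, and Kdm4b (0.634), Anks1 (0.63) and Tigd5 (0.626) for Ghrl. Over the 21 other organoid libraries, a set chosen after the data were seen, the closest gene to Tph1 was Pax4 (0.958), that to Sst was Rps6ka6 (0.977), that to Chga was Srebf2 (0.958) and that to Ghrl was Rnf43 (0.884). Libraries of a group are not independent points for such a likeness, and it is given as a description.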

How the data were processed

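RNA was sequenced from small intestinal organoids and IECs, and the authors deposited raw read counts per gene in 4 tables. The submitters' processing notes name STAR 2.5.2, featureCounts, Subread 1.6.3 and build mm10, while the counting strand is not given in the sources used here. Of the deposited columns, 6 IEC columns were not used because their letters could not be tied to a group, and the D173A IECs were therefore not analysed here. Wnt3-CM columns were matched by name and those of the kinase-dead line by elimination. Libraries held 15485959 to 32909565 counts.

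Organoids of 5 genotypes, time course, Wnt3-CM, kinase-dead line and IECs were each fitted in edgeR 4.0.16 (R 4.3.3) with TMM scaling, filterByExpr and the robust quasi-likelihood F test, and p-values were adjusted by Benjamini-Hochberg over all genes tested. Contrasts between these sets came from joint fits of both. Calls required an adjusted p below 0.05 with a fold change above 1.5. The SE is the size of the log2 fold change divided by the square root of F. CPM values used total counts, and CPM per kb the exon union of GENCODE vM21. Promoter sequences came from RefSeq, GRCm38.p6. The fits were tested on simulated counts, whose outcome is not given here. These were drawn independently for each library and held no effect of line, so they do not address replicates that share a line. Alternatives were DESeq2 1.42.0, limma-voom (limma 3.58.1), upper quartile scaling, no filter or 10 counts in every library, only the groups compared, the replicate number as a block, and each library left out. The plan was to name all 10 members in every comparison, and from other lists up to 4 called genes with the largest change. Only some of the members tested are named for 4 comparisons. These are IECs against organoids, the summed single knockouts, the kinase-dead line against the time course, and EtOH day 10 against day 3. The members and lists were chosen with earlier results of these data known. Replicate numbers were not taken as pairs, by a rule on the lowest correlation of deviations between same-numbered libraries. This lowest value was under 0.1 in each of 12 comparisons of 2 groups. It ran from -0.409 in IECs to 0.0950 in Wnt3-CM and 0.0947 in the kinase-dead line, whose numbers come from column names. The highest correlation was 0.208 in IECs, 0.232 at day 10, 0.222 in Wnt3-CM and 0.379 in the kinase-dead line. The rule therefore does not show that pairing was absent.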

Additional observations from a re-analysis of the deposited data

Results flagged for a closer look

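The response to loss of CDK8 and CDK19 differed between IECs and organoids for 4 members by the contrast of the changes, each higher in IECs: Pyy by 2.80, Gcg by 1.25, Sct by 1.17 and Cck by 0.875 on the log2 scale (edgeR's quasi-likelihood test, adjusted p = 0.00334, 0.0308, 0.0127 and 0.0242). The calls of Gcg and Cck were lost without any of several single libraries, and that of Gcg also with the replicate number as a block. For Sct the response to 4-OHT was 1.71 higher in the kinase-dead line than in the time course at day 7 (adjusted p = 0.00172). Between IECs and organoids, tissue, table, day (14 against 7) and induction (tamoxifen in mice against 4-OHT in culture) differ together and cannot be told apart. Between the kinase-dead line and the time course, both of them organoids, the Cdk19 genotype (D173A/- against -/-), line and table cannot be told apart.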

How the results depend on the processing

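Without the contrast of the kinase-dead line with the time course, where members other than Sct were near 0 counts in the latter, the 44 called changes of single members had 603 values under the alternatives, of which all 603 kept their direction, 561 stayed called and 42 fell below a cutoff. With 10 counts required in every library, the number of members called was 1 for CDK8iIEC-KO, 3 for Cdk8 fl/fl/Cdk19-/-, 1 for EtOH day 10 against day 3 and 1 for the kinase-dead line against the time course, since members under 10 counts in a library were not tested. Pyy and Sst left the test of the 5 genotypes. This also ended their calls between the controls and against the summed single knockouts, and that of Pyy in CDK8iIEC-KO/Cdk19-/- organoids. Members not tested under an alternative gave none of the 603 values. With no filter it was 2 in IECs, where Chgb joined Ghrl (-0.62, adjusted p = 0.00432), 1 at day 7, 1 at day 10, 1 for the difference between days 10 and 3, and 1 for EtOH day 10 against day 3. With only the groups compared it was 1 for CDK8iIEC-KO and 1 for EtOH day 10 against day 3, and the cause was not tested. Leaving out single libraries gave 1 to 3 members for CDK8iIEC-KO, 4 to 6 for CDK8iIEC-KO/Cdk19-/- organoids, 5 to 6 for the contrast with the summed single knockouts, 0 to 1 in IECs, 0 to 1 at day 3 and for the difference between days 10 and 3, 1 to 2 for EtOH day 10 against day 3, 4 to 5 for the kinase-dead line against the time course and 2 to 4 for IECs against organoids. The counts for the kinase-dead line (8), the controls (10) and Cdk8 fl/fl/Cdk19-/- (5) held without any single library, though without C57BL/6 replicate 3 the last held Chgb in place of Pyy. With the replicate number as a block, 0 members were called in IECs (Ghrl -2.84, adjusted p = 0.0809), and 3 were called for IECs against organoids (Gcg 1.27, adjusted p = 0.0553). The block ended no other call of a member. For Wnt3-CM, the kinase-dead line and the contrasts between sets it took the numbers within each set, by column name where needed, and was added after the data were seen. At this depth the members of the time course line other than Sct were too low for a precise change.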
